A study of Mus musculus with 12 samples.

Results

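The genes described here are Rnf145, the LXR receptors Nr1h2 and Nr1h3, the LXR target genes Abca1, Abcg1, Mylip and Apoc1, and the phospholipid acyltransferases Lpcat1 and Lpcat3, measured in BV-2 microglia. Rnf145 was selected on its signal with luteolin, as the gene most raised in these same arrays, and the other genes were added around it with the luteolin results known. The values used for the choice are therefore those of the luteolin comparisons, and these are given below as a description without a test. Of the 9 genes, 8 had a probe set named here, with 15 probe sets in all, among 18195 genes and 45101 probe sets on the array. Nr1h2, which encodes LXRβ, had none and was not analysed here. The mean signal of all 8 reached the minimum of 50 in at least 1 of the 4 groups, so all 8 were among the 12071 genes tested. Apoc1 passed through the luteolin-treated group alone and is therefore left out of the counts wherever that group is compared.

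BV-2 is an immortalized mouse microglial line. Untreated control cells were compared with cells kept for 24 h with 50 µM luteolin, a plant flavonoid, with 50 ng/ml LPS, an endotoxin of Gram-negative bacteria sensed by Toll-like receptor 4, or with luteolin and LPS together, in 3 arrays per group and 12 in all. The labels name no allele, and all groups share 1 line, so they model cultured cells and not microglia in the brain. Luteolin was dissolved in DMSO, and the labels do not say whether control cells received it. Of 10 microglia and macrophage markers, Cx3cr1 lay between 36.0 and 60.1 and Aif1 between 33.5 and 435.8. The other 8 had a signal of 50 or more in every array. Of 5 fibroblast markers none did so, of 5 neuron and 5 astrocyte markers 1 each (Rbfox3 and Gfap), and of 5 oligodendrocyte markers 2 (Mbp and Mag). The summed signal of the microglia list was 52457 to 55642 in control, 50619 to 57415 in luteolin-treated, 50899 to 60122 in LPS-treated and 43936 to 61586 in luteolin + LPS arrays. Values are signals from the authors' RMA procedure, which sets arrays to a common distribution, so that a change shared by most genes is not visible. Fewer expressing cells and less RNA per cell cannot be told apart in such cultures.

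LXRs are nuclear receptors that bind oxysterols and, paired with an RXR partner, switch on genes for cholesterol efflux, lipoproteins and membrane lipid remodelling in macrophages and microglia. Rnf145 encodes a ubiquitin ligase of the endoplasmic reticulum membrane that is known as an LXR target and acts in the control of cholesterol synthesis. Abca1 and Abcg1 export cholesterol from the cell, Mylip (also called Idol) marks the LDL receptor for degradation, Apoc1 is an apolipoprotein, and Lpcat3 and Lpcat1 attach fatty acids to lysophospholipids, the first of them as a known LXR target.

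RefSeq promoter windows of 300 bases (250 before to 50 after a transcript start, build GRCm38.p6) were at hand for 7 of the 9 genes, 10 windows in all, with none for Abcg1 and Apoc1. The windows below are shown because Rnf145, Mylip and Lpcat1 are the genes whose luteolin arrays lay above the arrays without luteolin in both states, while Abca1 is the efflux gene whose arrays overlapped. Capitals mark CACGTG, known as an E-box, and TATAAA, the core of a TATA box. Each sequence is written in the gene's direction.
Rnf145, chr11:44518706-44519005, plus strand: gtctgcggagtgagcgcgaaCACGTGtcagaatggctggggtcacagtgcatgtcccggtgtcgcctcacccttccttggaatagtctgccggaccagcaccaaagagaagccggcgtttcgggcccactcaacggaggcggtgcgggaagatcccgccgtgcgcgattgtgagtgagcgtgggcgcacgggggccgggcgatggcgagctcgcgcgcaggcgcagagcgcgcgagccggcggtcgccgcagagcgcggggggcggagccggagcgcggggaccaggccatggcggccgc
Mylip, chr13:45389492-45389791, plus strand: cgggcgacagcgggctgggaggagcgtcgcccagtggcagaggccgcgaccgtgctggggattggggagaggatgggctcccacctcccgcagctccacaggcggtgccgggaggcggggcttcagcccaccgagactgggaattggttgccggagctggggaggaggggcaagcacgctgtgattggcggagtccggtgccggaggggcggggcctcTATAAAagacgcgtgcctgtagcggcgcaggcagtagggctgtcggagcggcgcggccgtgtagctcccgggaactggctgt
Lpcat1, chr13:73466981-73467280, plus strand: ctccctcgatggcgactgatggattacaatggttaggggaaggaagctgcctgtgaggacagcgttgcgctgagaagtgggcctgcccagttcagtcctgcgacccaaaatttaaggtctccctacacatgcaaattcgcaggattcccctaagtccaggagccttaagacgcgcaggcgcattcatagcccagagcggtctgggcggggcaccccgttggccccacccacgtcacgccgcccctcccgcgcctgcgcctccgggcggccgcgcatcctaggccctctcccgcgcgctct
Abca1, chr4:53159846-53160145, minus strand: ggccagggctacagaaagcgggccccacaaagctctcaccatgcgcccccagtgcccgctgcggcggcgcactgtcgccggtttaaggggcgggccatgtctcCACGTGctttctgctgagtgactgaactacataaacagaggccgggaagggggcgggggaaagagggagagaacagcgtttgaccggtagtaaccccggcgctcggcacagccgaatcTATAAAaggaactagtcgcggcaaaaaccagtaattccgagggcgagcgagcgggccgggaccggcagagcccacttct

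The LXR element was searched as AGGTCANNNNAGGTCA with up to 2 mismatches in the fixed letters, the single hexamer as AGGTCA, and the sterol regulatory element as ATCACCCCAC with up to 1 mismatch, all on both strands, where an LXR element without mismatch also holds the hexamer. None of the 10 windows held any of the 3 at these settings, against 3.02%, 16.3% and 1.95% of all 32851 windows. An LXR element with more than 2 mismatches is missed by this search, so the windows are not shown to lack one. The Abca1 window, for example, holds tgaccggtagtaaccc before its TATAAA, which on the other strand exceeds the mismatches allowed. CACGTG, which reads the same on both strands, and TATAAA on both strands were searched after the first result had been seen. CACGTG was found in the first windows of Rnf145 and Abca1, 230 and 147 bases before the start (7.15% of all windows). TATAAA was found in those of Mylip and Abca1, 32 and 29 bases before it (13.6% of all windows). These letters describe the printed windows and were not tested as binding sites.

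Rnf145 had the highest log2 difference of all genes tested in both luteolin comparisons. In control microglia, its signal was 464, 827 and 825 in replicates 1, 2 and 3, and in luteolin-treated microglia it was 1912.4, 2486.1 and 2275.3. With LPS alone it was 348, 961 and 787, and with luteolin + LPS 1850.4, 3998.9 and 1944.2. Every array with luteolin lay above every array without it, and replicate 1 was the lowest array of each group. The geometric mean went from 682 (SD 0.48 on the log2 scale, n = 3) to 2212 (SD 0.19), a log2 difference of 1.70 (limma standard error 0.40). In LPS-treated microglia it went from 641 (SD 0.78) to 2432 (SD 0.62), a log2 difference of 1.92 (standard error 0.40). The next gene in both rankings was Gsta3, a glutathione transferase, with log2 differences of 1.63 and 1.59. Within replicates 1, 2 and 3, the log2 difference of Rnf145 was 2.04, 1.59 and 1.46 without LPS and 2.41, 2.06 and 1.30 with it. Ordered by mean level, the groups ran from luteolin + LPS over luteolin and control to LPS. The arrays of the first pair overlapped, as did those of the last pair, and only the step between luteolin and control separated them.

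**Figure D1:**
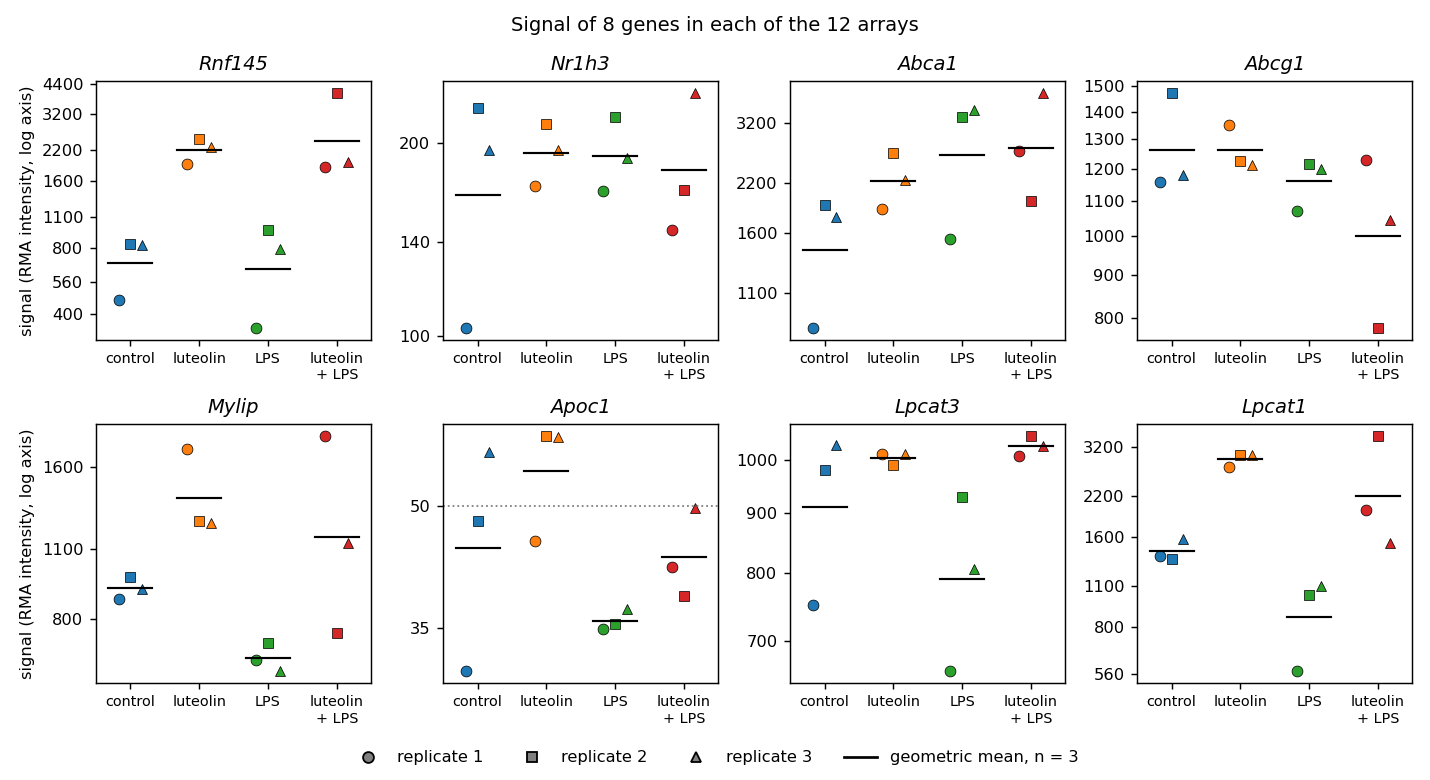
Signal of the 8 measured genes (RMA intensity, log axis) per array and group, with symbols by replicate number, a line at the geometric mean of each group (n = 3) and, for Apoc1, a dotted line at the minimum signal of 50. For Rnf145, the 6 arrays with luteolin lie between 1850.4 and 3998.9 and the 6 without it between 348 and 961.

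Nr1h3, which encodes LXRα, the LXR form typical of macrophages, lay between 103 and 239 in all arrays. Its signal was 103, 226 and 195 in control, 171, 214 and 195 in luteolin-treated, 168, 219 and 189 in LPS-treated and 146, 169 and 239 in luteolin + LPS microglia. The groups overlapped in every comparison, and control replicate 1 was the lowest array. The log2 differences with luteolin were 0.22 (standard error 0.27) without LPS, which was -0.13 without control replicate 1, and -0.08 (standard error 0.27) with LPS.

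For both cholesterol exporters, arrays with and without luteolin overlapped. Abca1 (the probe set with the highest mean) had signals of 882, 1915.5 and 1776.3 in control and 1860.9, 2651.7 and 2238.1 in luteolin-treated microglia. LPS-treated arrays had 1543.7, 3331.1 and 3469.7, and luteolin + LPS arrays 2685.2, 1963.0 and 3870.6. Arrays of luteolin and control overlapped in 1 pair, where luteolin replicate 1 lay below control replicate 2. The log2 difference was 0.63 (standard error 0.38) without LPS, or 0.27 without control replicate 1, and 0.06 (standard error 0.38) with LPS, where replicates 1, 2 and 3 gave 0.80, -0.76 and 0.16. Abcg1 had signals of 1157.4, 1474.4 and 1180.4 in control, 1352.7, 1224.1 and 1211.6 with luteolin, 1070.0, 1215.2 and 1200.0 with LPS and 1228.0, 779 and 1044.9 with luteolin + LPS. These are signals of its probe set with the highest mean, on which all groups overlapped. The log2 differences with luteolin were 0.00 and -0.21 (standard error 0.16 for both).

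Mylip and Apoc1 were the remaining LXR targets. Mylip had a mean signal of 920 (SD 0.075 on the log2 scale) in control and 1392 (SD 0.28) in luteolin-treated microglia, with arrays of 874, 969 and 918 against 1742.0, 1250.3 and 1237.2. With LPS the mean was 667 (SD 0.093) without and 1162 (SD 0.65) with luteolin, from arrays of 660, 715 and 629 against 1847.9, 749 and 1133.0. Luteolin arrays lay above the others in both states, by a small margin for luteolin + LPS replicate 2. The log2 differences were 0.60 (standard error 0.27) and 0.80 (standard error 0.27, or 1.12 without luteolin + LPS replicate 2 and 0.46 without replicate 1 in all groups). Apoc1 reached a signal of 50 in 3 of 12 arrays, 1 in control and 2 in luteolin-treated microglia. Its arrays gave 30.8, 47.9 and 58.7 in control, 45.1, 61.5 and 61.4 with luteolin, 34.8, 35.4 and 37.0 with LPS and 41.8, 38.4 and 49.7 with luteolin + LPS. Its log2 differences of 0.33 and 0.27 (standard error 0.22 for both) thus lie near the minimum signal, the former was 0.06 without control replicate 1, and the latter was 0.00 when signals under 50 were set to 50.

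Of the acyltransferases, Lpcat1 had the second highest luteolin differences among the chosen genes. Lpcat1 had signals of 1387.1, 1356.5 and 1578.9 in control and 2737.2, 3005.2 and 2997.1 in luteolin-treated microglia, with no overlap. LPS-treated arrays had 573, 1029.3 and 1103.7, and luteolin + LPS arrays 1971.8, 3474.3 and 1526.1, again with no overlap. The log2 difference was 1.02 (standard error 0.30) without LPS, within replicates 0.98, 1.15 and 0.92. With LPS it was 1.34 (standard error 0.30), with 1.78, 1.76 and 0.47 in replicates 1, 2 and 3. It was 1.0 when luteolin + LPS replicate 2 was left out. Lpcat1 ranked 25 and 12 from the highest of 12071 genes. Lpcat3 had signals of 751, 980 and 1030.1 in control and 1010.1, 989 and 1010.9 with luteolin, which overlapped (log2 difference 0.14, standard error 0.15). With LPS it had 660, 930 and 806, and with luteolin + LPS 1007.3, 1047.5 and 1027.3, which did not overlap (log2 difference 0.38, standard error 0.15). The 6 luteolin arrays of Lpcat3 spanned a narrow range, from 989 to 1047.5.

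**Figure D2:**
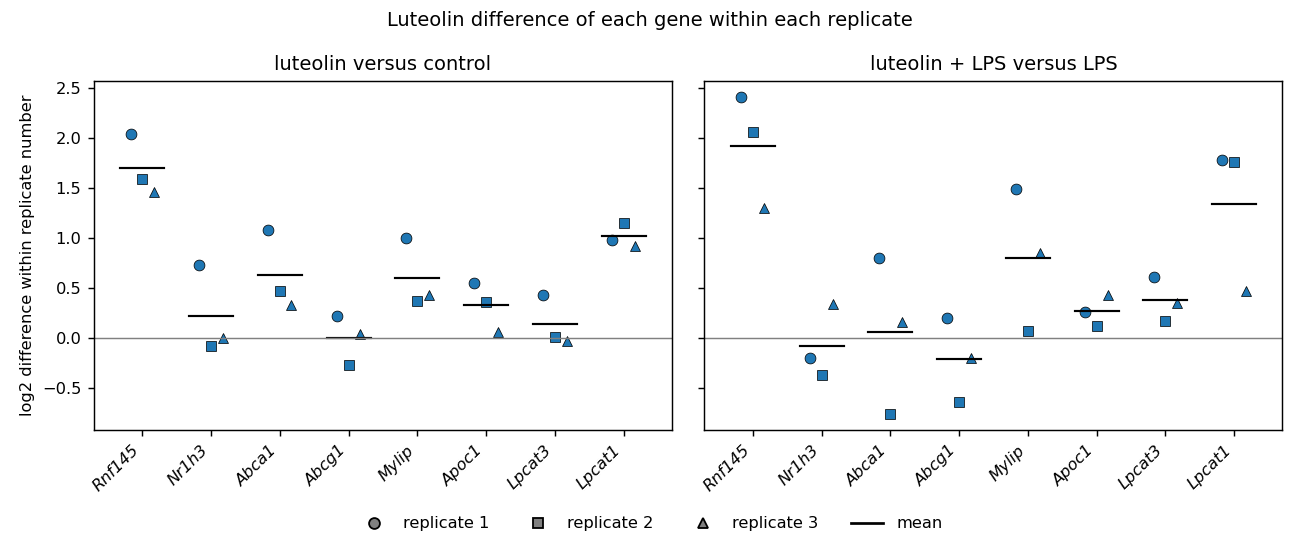
Log2 difference between the array with luteolin and the array without it of the same replicate number, for luteolin versus control (left) and luteolin + LPS versus LPS (right), with a line at each mean. Rnf145, Mylip, Apoc1 and Lpcat1 lie above 0 in every replicate of both panels, Rnf145 with means of 1.70 and 1.92, while Nr1h3, Abca1 and Abcg1 fall on both sides of 0 with LPS.

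Over the 7 genes other than Apoc1, all 3 luteolin arrays lay above all 3 control arrays for 3 (Rnf145, Mylip and Lpcat1), against 8.29% of all genes tested, and the median log2 difference was 0.60 against -0.01. With LPS the count was 5 of 8 (those 3, Lpcat3 and Apoc1), against 8.04% of all genes, with a median of 0.32 against 0.02. Apoc1 lay under the minimum signal in all arrays of this comparison. Nothing is read from these counts, since the choice of genes used both comparisons, which share no array with each other. Limma called 0 of all genes (0%) at an adjusted p under 0.05 in luteolin versus control, 9.09% having an unadjusted p under 0.05 and 34 passing with the replicate number as a block. In luteolin + LPS versus LPS it called 0.149% higher and 0.356% lower (1.95% and 2.84% with the block). Luteolin + LPS replicate 2 was the highest array of Rnf145 and Lpcat1 and the lowest of Abcg1. Without it, the log2 differences with LPS were 1.56 for Rnf145, 0.36 for Lpcat3, 0.30 for Abca1 and -0.03 for Abcg1.

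Probe sets of the same gene were compared where more than 1 was present. Lpcat1 had 5, of which 2 lay under 50 in all 12 arrays. The remaining 3 ran the same way, with log2 differences of 0.85, 1.02 and 1.25 for luteolin versus control and 1.27, 1.34 and 1.72 for luteolin + LPS versus LPS. Abca1 had 3, with 0.63, 0.91 and 1.03 for luteolin versus control and 0.06, 0.06 and -0.23 with LPS. Control replicate 1 was low on each of them, at 882, 108 and 48.0. The 2 probe sets of Abcg1 gave 0.00 and 0.22 without LPS and -0.21 and 0.07 with it. In LPS versus control they gave -0.12 and -0.51 (limma adjusted p = 0.726 and 0.218 with every probe set as a row). In luteolin + LPS versus luteolin they gave -0.33 and -0.66 (limma adjusted p = 0.543 and 0.236), the latter with no overlap of arrays. Rnf145, Nr1h3, Mylip, Apoc1 and Lpcat3 had 1 probe set each.

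**Figure D3:**
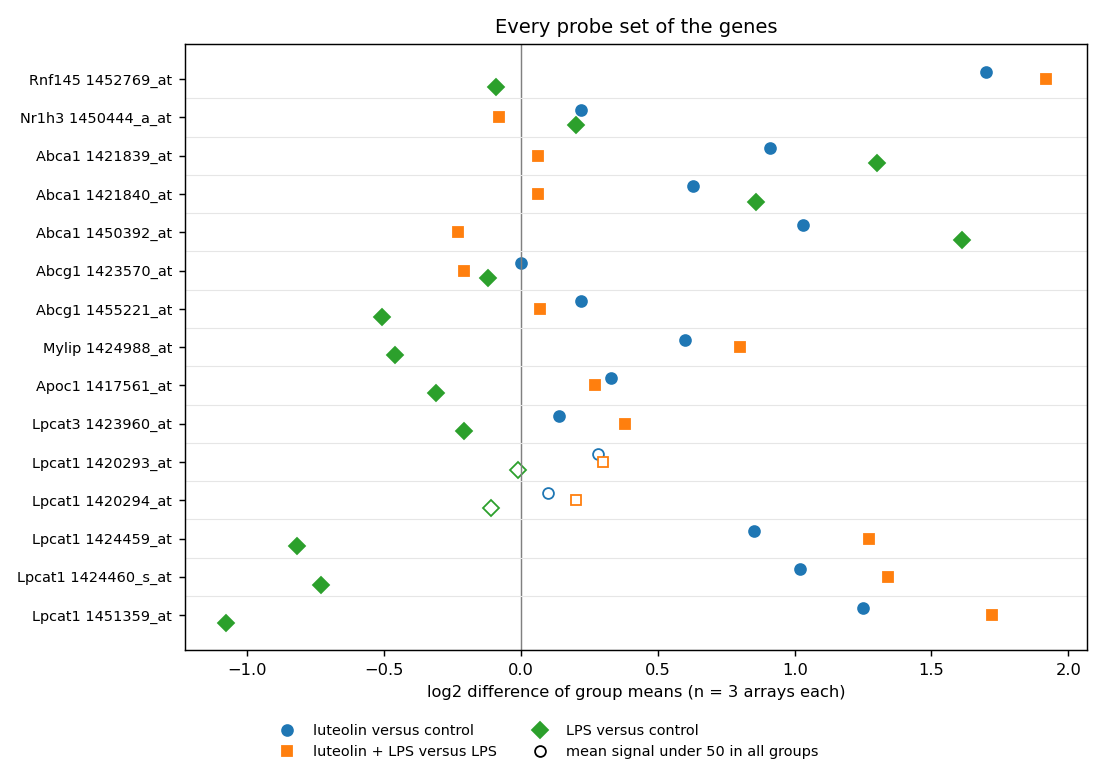
Log2 difference of group means (n = 3 arrays each) for each of the 15 probe sets in 3 comparisons, with open symbols for the 2 probe sets under a mean of 50 in all groups. The 3 measured probe sets of Lpcat1 lie at 0.85 to 1.25 with luteolin and at -1.08 to -0.73 with LPS, and those of Abca1 at 0.86 to 1.61 with LPS.

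The choice of genes was made on the luteolin comparisons, with earlier results of these data known, and the response to LPS was tested. The control and LPS arrays also served in the luteolin comparisons, so this test is not independent of the choice. Limma called 0 of the 8 genes in LPS versus control at an adjusted p under 0.05, with and without the replicate block, where 1.96% of all genes were higher and 2.22% lower (4.30% and 6.78% with the block). An unadjusted p under 0.05 was found for 2 of the 8, and for 20.5% of all genes. Abca1 had a log2 difference of 0.86 (standard error 0.38, unadjusted p = 0.0453 and adjusted p = 0.233 by limma), higher in each replicate, with overlapping arrays. It was 0.50 without control replicate 1 and 1.24 without LPS replicate 1. The other probe sets of Abca1 gave 1.30 and 1.61 (limma adjusted p = 0.196 and 0.136 with every probe set as a row). On the latter the arrays did not overlap, with control replicate 1 at 48.0. Lpcat1 had a log2 difference of -0.73 (standard error 0.30, limma unadjusted p = 0.0313 and adjusted p = 0.194), with all LPS arrays below all control arrays, and -0.43 without LPS replicate 1. Mylip had -0.46 (standard error 0.27, limma adjusted p = 0.352), likewise with no overlap. For Rnf145 the log2 difference was -0.09, with a 95% confidence interval of -0.97 to 0.79 (limma adjusted p = 0.922). Abcg1, Apoc1 and Lpcat3 had -0.12, -0.31 and -0.21, and Nr1h3 had 0.20, all with an adjusted p of 0.454 or more by limma. The median over the 8 was -0.16, against -0.04 over all genes. With array weights, limma called 2 of the 8, Abca1 at 0.90 (adjusted p = 0.0148) and Apoc1 at -0.54 (adjusted p = 0.0283). In that setting it called 1950 of all 12071 genes, against 505 without weights. Apoc1 lay under the minimum signal in all LPS arrays, and its control mean of 44.2 was under it as well. Its control replicate 1, at 30.8, lay below every LPS array.

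The response to LPS in the presence of luteolin was tested in the same way, on arrays that also served in the luteolin comparisons. Comparing luteolin + LPS with luteolin, limma called 0 of the 7 genes other than Apoc1, with 0 at an unadjusted p under 0.05 (11.5% of all genes), where 0.804% of all genes were higher and 1.0% lower (1.74% and 2.85% with the block). The log2 differences were 0.14 for Rnf145 (95% confidence interval -0.75 to 1.02), 0.30 for Abca1, 0.03 for Lpcat3, -0.09 for Nr1h3, -0.26 for Mylip, -0.33 for Abcg1 and -0.41 for Lpcat1. Apoc1 is given without a test, at -0.37. The luteolin differences with and without LPS were also set against each other, again as a description, since both were used in the choice of genes. With LPS the log2 difference was higher by 0.23 for Rnf145 (standard error 0.57), by 0.32 for Lpcat1 (standard error 0.42), by 0.24 for Lpcat3 (standard error 0.21) and by 0.20 for Mylip (standard error 0.37). For Abca1 it was -0.56 (standard error 0.54), for Nr1h3 -0.29, for Abcg1 -0.21 and for Apoc1 -0.06. Over all genes, this difference of differences was called for 0%, with an unadjusted p under 0.05 for 3.15% by limma.

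Other known LXR targets were set beside these genes. Of a list of 19, 17 had a probe set and 12 were tested. In LPS versus control, 1 rose and 2 fell, where 1.96% of all genes rose and 2.22% fell, with a median of -0.18 against -0.04 over all genes. Tgm2, the transglutaminase of phagocytes, rose from 60.0 to 363 (log2 difference 2.60, standard error 0.44, limma adjusted p = 0.00942). Apoe, the main apolipoprotein of microglia, fell from 7935 to 3799 (log2 difference -1.06, standard error 0.21, limma adjusted p = 0.0207). Cd5l, a secreted survival factor of macrophages, fell from 117 to 62.2 (log2 difference -0.92, standard error 0.15, limma adjusted p = 0.00829). Mertk, a receptor for apoptotic cells, had a log2 difference of -1.47 (standard error 0.41, limma adjusted p = 0.0731, or 0.00272 with the replicate block). Tgm2 and Cd5l passed in each of 36 alternatives. Apoe did not pass without control replicate 2 or 3 (adjusted p = 0.0810 and 0.0820), without LPS replicate 1 or 3 (0.0589 and 0.0823) or with only the groups compared (0.0812).

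With luteolin present, 3 of these targets fell with LPS (luteolin + LPS versus luteolin) and none rose, where 1.0% of all genes fell and 0.804% rose, with a median of -0.14 against 0.00 over all genes. With the replicate block 4 fell and 1 rose, against 2.85% and 1.74% of all genes. Mertk fell from 470.5 to 100.1 (log2 difference -2.23, standard error 0.41, limma adjusted p = 0.0223), Cd5l from 203 to 62.4 (-1.70, standard error 0.15, adjusted p = 4.36e-04) and Apoe from 8221 to 3922 (-1.07, standard error 0.21, adjusted p = 0.0328). Tgm2 had 1.50 (limma adjusted p = 0.151, or 0.0489 with the block). Apoc2, an activator of lipoprotein lipase, had -0.93 (standard error 0.46, limma adjusted p = 0.507, or 0.00243 with the block), within replicates -0.61, -1.12 and -1.07. Apoe lost its call without any 1 of the luteolin arrays, without control replicate 3, LPS replicate 3 or luteolin + LPS replicate 1 or 3 (adjusted p up to 0.152). Mertk lost it without luteolin replicate 1 or 3, without luteolin + LPS replicate 3 (up to 0.105) or with only the groups compared (0.0986). Luteolin itself gave no limma call among the 12 in either state, with an unadjusted p under 0.05 for 2 without and 0 with LPS (9.09% and 14.9% of all genes). With LPS, the largest difference was that of Mertk, -0.57 (limma adjusted p = 0.572). Without LPS, Tgm2 had a log2 difference of 1.32 (standard error 0.44, limma adjusted p = 0.401) and Cd5l 0.79 (standard error 0.15, adjusted p = 0.159), both with no overlap of arrays. Srebf1, the LXR target that drives fatty acid synthesis, had means of 899, 955, 854 and 925 in control, luteolin, LPS and luteolin + LPS.

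**Figure D4:**
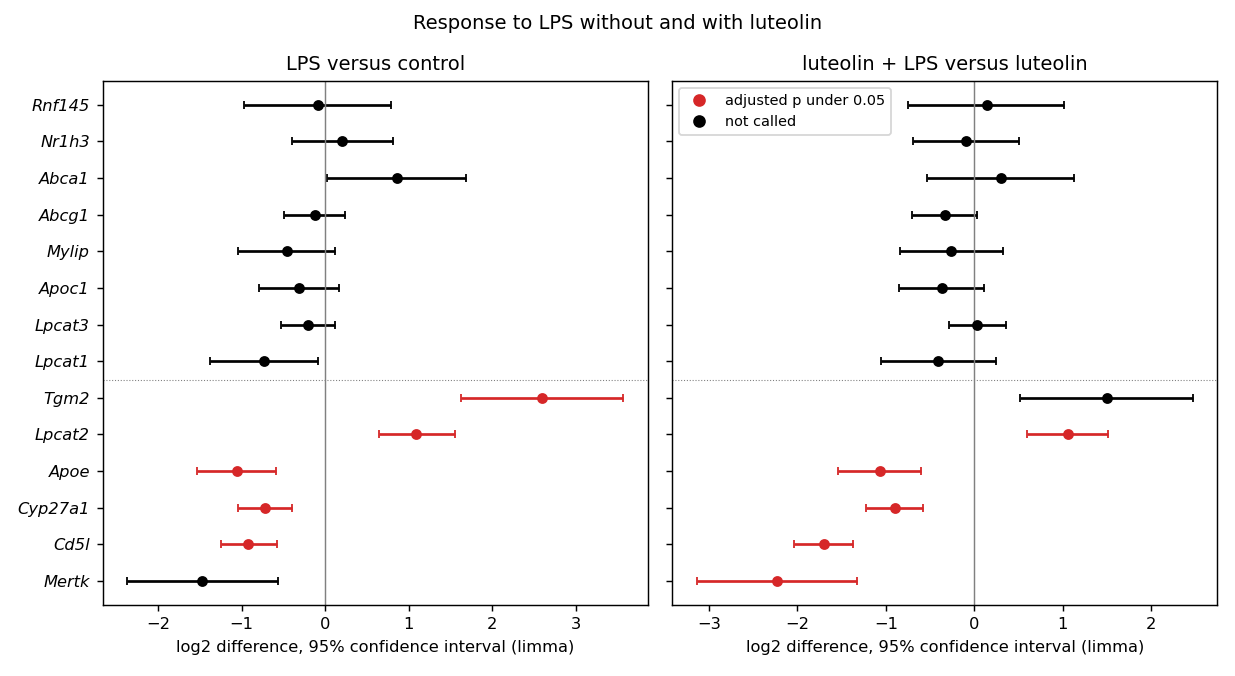
Log2 difference with its 95% confidence interval (limma, n = 3 arrays per group) for LPS versus control (left) and luteolin + LPS versus luteolin (right). The 8 genes chosen around Rnf145 stand above the dotted line, none of them called (Apoc1 untested on the right), and 6 pathway genes below it, red where the adjusted p was under 0.05, such as Tgm2 at 2.60 on the left and Cd5l at -1.70 on the right.

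Among 13 further acyltransferases of lysophospholipids and related lipids, 12 were tested, and limma called 1 higher and 0 lower in each LPS comparison. Over all genes, 1.96% were higher and 2.22% lower in LPS versus control, and 0.804% and 1.0% in luteolin + LPS versus luteolin. An unadjusted p under 0.05 was found for 3 of the 12 in the former (20.5% of all genes) and for 1 in the latter (11.5%). Lpcat2, a close relative of Lpcat1 that also makes platelet-activating factor, rose from 173 to 369 in LPS versus control (log2 difference 1.09, standard error 0.20, limma adjusted p = 0.0156). It also rose from 255 to 531 in luteolin + LPS versus luteolin (1.06, standard error 0.20, limma adjusted p = 0.0289). The value of Lpcat1 in the same comparisons was -0.73 and -0.41. The call of Lpcat2 in LPS versus control was lost without control replicate 2 or 3 (adjusted p = 0.0504 and 0.0610), without replicate 1 in all groups (0.0549), with the mean of its probe sets (0.0700) and, with the replicate block, without control replicate 3 (0.0729). Its call in the presence of luteolin was lost in 14 of 36 alternatives. Agpat2, which makes phosphatidic acid, had -0.52 in LPS versus control (standard error 0.19, limma adjusted p = 0.151, or 0.0194 with the block), lower in each replicate. With luteolin limma called none of the 12, 3 having an unadjusted p under 0.05 in each state (9.09% of all genes without and 14.9% with LPS). Mboat1 had 0.90 (standard error 0.35, limma adjusted p = 0.470) in luteolin versus control. The largest difference in luteolin + LPS versus LPS was that of Agpat5, a lysophosphatidic acid acyltransferase, at 0.79 (standard error 0.30, limma adjusted p = 0.256), with no overlap of arrays and 0.38 to 1.13 when single arrays were left out. Mboat7, which acts on lysophosphatidylinositol, had 0.68 (standard error 0.15, limma adjusted p = 0.0640, or 0.0384 with the replicate block) in the same comparison. Over the 12, the median log2 difference was 0.14 without and 0.18 with LPS, against -0.01 and 0.02 over all genes.

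Partners of LXR and enzymes of its ligands were measured too. Of 10 partners and cofactors, 8 were tested and limma called none, with an unadjusted p under 0.05 for 3 in LPS versus control and 2 in luteolin + LPS versus luteolin (20.5% and 11.5% of all genes). With luteolin it was found for 0 without and 1 with LPS (9.09% and 14.9% of all genes). The largest log2 differences were -0.48 for Nrip1 in LPS versus control (limma adjusted p = 0.0768) and -0.76 for Ncoa2 in luteolin + LPS versus luteolin (limma adjusted p = 0.0628, or 0.0327 with the block). With luteolin they were -0.36 for Ncoa3 without LPS and -0.60 for Ncoa2 with it (limma adjusted p = 0.717 and 0.146). Rxra, the main RXR partner in macrophages, had means between 408 and 494. Of 6 oxysterol enzymes, 3 were tested, while Ch25h, Cyp46a1 and Cyp7b1 lay under 50 in every group. Cyp27a1, which makes 27-hydroxycholesterol in mitochondria, fell from 1333 to 810 with LPS (log2 difference -0.72, standard error 0.15, limma adjusted p = 0.0212) and from 1322 to 708 with LPS in the presence of luteolin (-0.90, standard error 0.15, adjusted p = 0.0117). The first call was lost without any 1 control array or LPS replicate 3 (adjusted p up to 0.0892), without replicate 1 in all groups (0.0643) with the mean of its probe sets (-0.36, adjusted p = 0.0648) and, with the block, without control replicate 3 or LPS replicate 3 (0.0568 and 0.0546), and the second without luteolin replicate 1 or 3 and with only the groups compared (up to 0.0713). With luteolin none of the 3 was called, with 0 at an unadjusted p under 0.05 (9.09% of all genes without and 14.9% with LPS). Cyp51, of cholesterol synthesis, had the largest differences, -0.45 without and 0.28 with LPS (limma adjusted p = 0.601 and 0.619).

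Sterol sensors and ubiquitin ligases of the endoplasmic reticulum formed the last list, with 9 of 12 tested and none called by limma. An unadjusted p under 0.05 was found for 1 gene in LPS versus control (20.5% of all genes). It was found for 1 in each luteolin comparison (9.09% of all genes without and 14.9% with LPS). It was found for 0 in luteolin + LPS versus luteolin (11.5% of all genes), where Insig1 had the largest difference (0.33, limma adjusted p = 0.797). Insig2, which retains the sterol sensor Scap in the endoplasmic reticulum, had means of 1405, 1471, 3100 and 1663 in control, luteolin, LPS and luteolin + LPS. Its log2 difference was 1.14 in LPS versus control (standard error 0.44, limma adjusted p = 0.177, or 0.00953 with the replicate block), and 0.58 without LPS replicate 1. It was -0.90 in luteolin + LPS versus LPS (standard error 0.44, limma adjusted p = 0.383, or 0.0425 with the block), and -0.34 without the same array. Srebf2, the regulator of cholesterol synthesis, had -0.50 in luteolin versus control (standard error 0.21, limma adjusted p = 0.499). Rnf139 and Syvn1, which encode other membrane ubiquitin ligases of this compartment, had means of 1036 to 1231 and 642 to 766. Syvn1 was the gene with an unadjusted p under 0.05 in luteolin + LPS versus LPS (log2 difference 0.25, limma unadjusted p = 0.0353 and adjusted p = 0.291). In luteolin versus control Syvn1 had 0.19 (limma adjusted p = 0.648), with no overlap of arrays in either state. Rnf139 had -0.15 without and -0.10 with LPS, with overlapping arrays. In the difference of luteolin differences with and without LPS, limma called no gene of any of the lists. An unadjusted p under 0.05 was found for 1 each of the targets, the partners and the oxysterol enzymes (3.15% of all genes).

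Over the 12 arrays, the genes most like Rnf145 were Sptlc1, a subunit of serine palmitoyltransferase, with a Pearson r of 0.965, Spcs1, of the signal peptidase complex, with 0.955, Gm39874 with 0.951, Pafah2, which degrades platelet-activating factor, with 0.951, and Cisd2, with 0.948. Sptlc1 had means of 1035, 1651, 901 and 1694 in control, luteolin, LPS and luteolin + LPS. Pafah2 had means of 1029, 1506, 854 and 1564 in the same order. Gm39874 lay near the minimum signal, with means of 40.7 to 59.5. Among the chosen genes, r to Rnf145 was 0.88 for Lpcat1 and 0.82 for Lpcat3, 0.52 for Mylip, 0.50 for Apoc1, 0.44 for Abca1, 0.30 for Nr1h3 and -0.31 for Abcg1. These correlations are a description over arrays that share treatments, replicate numbers and normalization.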

How the data were processed

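Total RNA of BV-2 microglia was measured on Affymetrix Mouse Genome 430 2.0 arrays, 3 per group, from RNAs that the study describes as independent. PUER cells appear in the extraction text of the labels and BV-2 cells in their treatment text and in the paper, and BV-2 was taken. For the fourth group the methods name LPS on both sides of the plus sign, and luteolin + LPS was taken from the labels. The authors summarized probes with RMA (background correction, quantile normalization, median polish), and the deposited values are linear intensities per probe set. Array medians were 52.2 to 56.4, and 50.9% to 52.5% of probe sets reached 50. The number of arrays limits the precision. Scans and single probes were not used here.

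The log2 was taken. Of 45101 probe sets, 34958 named 1 gene, 932 several and 9211 none here. Per gene, the brightest probe set on average was used (9011 genes had several), and genes with a mean of at least 50 in 1 or more groups were tested (12071 of 18195). Limma 3.58.1 in R 4.3.3 was fitted with 4 group means to 12 arrays, with Benjamini-Hochberg adjustment over all genes tested and a threshold of 0.05. The genes and the pathway lists were chosen with earlier results of these data known. Named were all chosen genes, per list and comparison the genes with the largest difference among those called (otherwise the largest, said not to pass) and the 5 genes most correlated with Rnf145. Named besides, after their values were seen, were genes whose call the block changed and Rxra, Srebf1, Rnf139 and Syvn1. The interaction of luteolin with LPS, planned as a test of the chosen genes, is given without one, since it is made of the luteolin comparisons.

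Arrays with the same replicate number deviated together from their group means (18 pairs, r 0.101 to 0.591, median 0.421, and a median of -0.295 in 36 pairs of different numbers). Deviations within a group sum to 0, so the negative median follows in part from the positive one and is no separate baseline. The number, from the sample titles, was taken to pair arrays and used as a block in an alternative fit. Standard errors and confidence intervals are those of the fit without the block. With the block the standard error in luteolin versus control was 0.24 against 0.40 for Rnf145, and 0.17 against 0.16 for Abcg1. Further alternatives changed the arrays in the fit, array weights, the signal filter, the probe set per gene, centring, an offset of 16, a floor of 50 and the variance model. Limma and the motif search were tested on simulated data. Plots were made in matplotlib 3.10.9 under Python 3.11.15.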

Additional observations from a re-analysis of the deposited data

How the results depend on the processing

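Of 36 alternatives, 34 left the count of called genes in LPS versus control at 0 of 8. It was 2 with array weights and 1 without luteolin + LPS replicate 2 with the replicate block (Abca1, adjusted p = 0.0151), so 0 to 1 over the fits that leave out an array. In the same order, these settings called 1950 and 1676 of all 12071 genes. In luteolin + LPS versus luteolin the count of called genes was 0 of 7 in every alternative run. The log2 difference of Rnf145 stayed between 1.42 and 1.88 without LPS and between 1.48 and 2.22 with it when single arrays were left out, and was 1.53 and 1.43 with array weights. The 5 pathway genes called in LPS versus control became 8 with the replicate block, 10 with array weights, 3 with probe sets averaged per gene, and 2 to 6 without single arrays (4 to 10 with the block as well). The 5 in luteolin + LPS versus luteolin became 8 with the block, 8 with array weights, 2 with only the groups compared, and 1 to 6 without single arrays (5 to 8 with the block as well). The 0 in luteolin versus control became 4 with array weights and stayed 0 without single arrays (0 to 2 with the block as well). The 0 in luteolin + LPS versus LPS became 2 with the block, 1 with array weights, 3 without replicate 1 in all 4 groups, an alternative chosen after seeing the data, and 0 to 1 without single arrays (0 to 3 with the block as well). The replicate block changed the calls of Mertk, Insig2, Agpat2, Tgm2, Ncoa2, Apoc2 and Mboat7 and no other call of the genes described. The counts over all genes went from 505 to 1338 with the block and 1950 with array weights in LPS versus control, from 218 to 554 and 592 in luteolin + LPS versus luteolin, from 61 to 578 and 292 in luteolin + LPS versus LPS, from 0 to 34 and 962 in luteolin versus control and from 0 to 0 and 5 in the interaction. With only the groups compared, luteolin + LPS versus LPS gave 0 and luteolin + LPS versus luteolin 101. With probe sets averaged per gene, LPS versus control gave 499. Without single arrays, LPS versus control gave 197 to 660 (364 to 1676 with the block as well). Luteolin + LPS versus luteolin then gave 69 to 303 (181 to 882), and luteolin + LPS versus LPS 11 to 142 (63 to 606). Without replicate 1 in all 4 groups, luteolin + LPS versus LPS gave 505. The cause of these shifts was not tested.

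Uncalled values near 0 changed sign. With array weights, Rnf145 was 0.08 in LPS versus control and -0.02 in luteolin + LPS versus luteolin. Without replicate 1 in all 4 groups, Rnf145 was 0.07 and Nr1h3 -0.05 in LPS versus control. Without single arrays, Rnf145 ran from -0.38 to 0.35 and Nr1h3 from -0.14 to 0.43 in LPS versus control. In luteolin + LPS versus luteolin, Rnf145 ran from -0.22 to 0.33, Nr1h3 from -0.29 to 0.06, Mylip from -0.60 to 0.06 and Insig2 from -0.06 to 0.49. In the interaction, a description, Rnf145 ran from -0.21 to 0.52, Nr1h3 from -0.52 to 0.05, Mylip from -0.13 to 0.52, Apoc1 from -0.26 to 0.21 and Lpcat1 from -0.02 to 0.58. With the replicate block as well, opposite signs were seen in LPS versus control for Nr1h3 (-0.03), Abcg1 (0.04) and Rnf145 (0.05 and 0.16). For luteolin + LPS versus luteolin they were seen for Nr1h3 (0.02 and 0.09), Rnf145 (-0.04 and -0.05), Lpcat3 (-0.04) and Mylip (0.06). Apoc1 lies at the minimum signal, so its differences are limited by signal over background.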
